A study of Homo sapiens with 8 samples.

Results

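The genes described here encode the proteins of the cytosolic ribosome. They were taken from the count table by symbol, as every RPL or RPS gene with a number and, where present, one of the suffixes A, X, L, AL or L1, together with RPLP0, RPLP1, RPLP2 and RPSA. This rule used no measured value and gave 86 of the 23346 listed genes, 53 of the large and 33 of the small ribosomal subunit. The libraries came from hCMEC/D3 cells, which are human endothelial cells of brain microvessels, immortalised and grown as a model of the blood-brain barrier. There were 8 replicates of the line and no other group, and polyadenylated RNA was sequenced from each. The labels gave no treatment, time or passage and did not say whether the replicates were separate cultures, so the p-values below measure only the spread between these samples, which may be technical.

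Ribosomal proteins assemble with ribosomal RNA in the nucleolus, and most are needed in equal numbers per ribosome, so their genes are usually described as a group that is expressed together. Their mRNAs typically begin with a C and a run of pyrimidines, the terminal oligopyrimidine tract, through which mTORC1 and LARP1 control their translation. Several members have paralogs that can replace them in the ribosome in particular tissues, and loss of single members causes Diamond-Blackfan anaemia and related ribosomopathies.

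The total counts per library ranged from 69388544 to 90205244 and every count was an even number, with 0 odd values among 186768. All 12 endothelial markers on the list used, among them PECAM1, CDH5, VWF and CLDN5, were detected at 1 CPM (counts scaled to library size) or more in every library, with a summed level of 3530 to 5759 CPM. The summed levels were 3.84 to 4.94 CPM for 5 epithelial markers, 18.7 to 32.1 CPM for 5 mural markers, 0.550 to 0.804 CPM for 4 astrocyte markers, 47.0 to 84.97 CPM for 5 microglial and leukocyte markers and 51.7 to 66.5 CPM for 5 neuronal markers. In these lists, KRT19 (epithelial), PDGFRB and RGS5 (mural), CD68 (microglial and leukocyte) and SYT1 and TUBB3 (neuronal) were also detected in every library. AQP4 and STMN2 had no counts in any library. Replicates 2, 7 and 8 stood apart from the other 5. Over 11556 detected genes that are not ribosomal protein genes, their log2 departures from the gene means fell by 0.20, 0.10 and 0.31 per doubling of transcript length, whereas those of the other 5 libraries rose by 0.08 to 0.14. The summed share, the spread between libraries, the variation calls, the relation to GC content and the RPL7L1 ratio are therefore also given without these 3 libraries, a setting chosen after seeing the data.

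The start sites of the paralog pairs are shown first, because the pairs differ in the feature that marks the family. Each sequence runs from 12 bases before the annotated transcription start through 16 bases from it, 5′ to 3′ on the strand of the gene, from RefSeq on GRCh38.p14. Capitals mark the run of pyrimidines that starts with a C and lies nearest to the annotated start, within 5 bases of it. A sequence without capitals holds no run of C and at least 4 pyrimidines that begins within 5 bases of the annotated start.
RPL22, chr1:6199580-6199607, minus strand: ttcgctcacctcCCTTTCTaactccgct
RPL22L1, chr3:170870180-170870207, minus strand: ggccgtagcttcCTCTCTgctctcgcgg
RPS27, chr1:153990750-153990777, plus strand: tccgctttcgctCCTTTCCggcggtgac
RPS27L, chr15:63157462-63157489, minus strand: ttgatgccgagcgcagatcgcttgcagc
RPL26, chr17:8383178-8383205, minus strand: cagcgtgtagttCTCTTCCCTTTTgcgg
RPL26L1, chr5:172958717-172958744, plus strand: cttccaggggtcggcgaacgaaacgcgg
RPL36A, chrX:101390999-101391026, plus strand: gcctcgcggtttCTTTCTTTCCgcgccg
RPL36AL, chr14:49620611-49620638, minus strand: tttcttccCTTTCCTgttaggcgagagc
RPL10, chrX:154398365-154398392, plus strand: gcggaggagcgcCTCTTTCCCTTCggtg
RPL10L, chr14:46651766-46651793, minus strand: gcgtagttaagagagcgcattttgactt
RPL7L1, chr6:42879604-42879631, plus strand: aagtgcggcgccgtagctaggagcggac

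RPL22L1 and RPL22 both began with such a run, whereas RPS27L, RPL26L1, RPL10L and RPL7L1 had none near the start. In RPL36AL the marked run began 4 bases upstream of the start, and all bases before it in the window were also pyrimidines. RPL26L1 had a second annotated start, also without a run, and RPL10 had a further 2 starts without a run. Of 84 promoter entries, which covered 68 of the 86 members, 47 (56.0%) had the C and at least 4 pyrimidines at the annotated start and 59 (70.2%) had them when the start could move by up to 5 bases either way. Among all 35116 promoters of the same length in the table, the shares were 4.07% and 21.1%. By gene, 47 members (69.1%) had a run at 1 or more of their starts, 8 more had one within 5 bases only, and 13 had none. These 13 included RPS4X, RPS29, RPL15, RPL6 and RPL9 beside the paralogs. Their mean level ranged up to 1170 RPKM (CPM per 1000 bases of transcript), reached by RPS29, and the median was 781 RPKM, undetected members included, beside 895 RPKM for the 47 members with a run at the start and 986 RPKM for the 8 between. Only the strand of the gene was searched, and a match describes letters, not use of a start.

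At 1 CPM or more in all 8 libraries, 80 of the 86 members were detected, 49 of the large and 31 of the small subunit. Per transcript length, the detected members ranged from 14.4 RPKM for RPL22L1 to 1998 RPKM for RPS18, with a median of 959 and quartiles of 680 and 1172 RPKM. Their level was within 2-fold of this median either way for 62 of the 80. Members made up 57 of the 100 genes with the highest mean RPKM and 76 of the top 1000, while the median of all 11636 detected genes with a length was 13.5 RPKM. The SD of the mean log2(RPKM + 0.1) over detected members was 1.32, and it was 1.01 without the paralogs whose symbols end in L, L1 or AL. The long tail of the family was therefore on the low side, as the plot of levels by member shows.

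**Figure D1:**
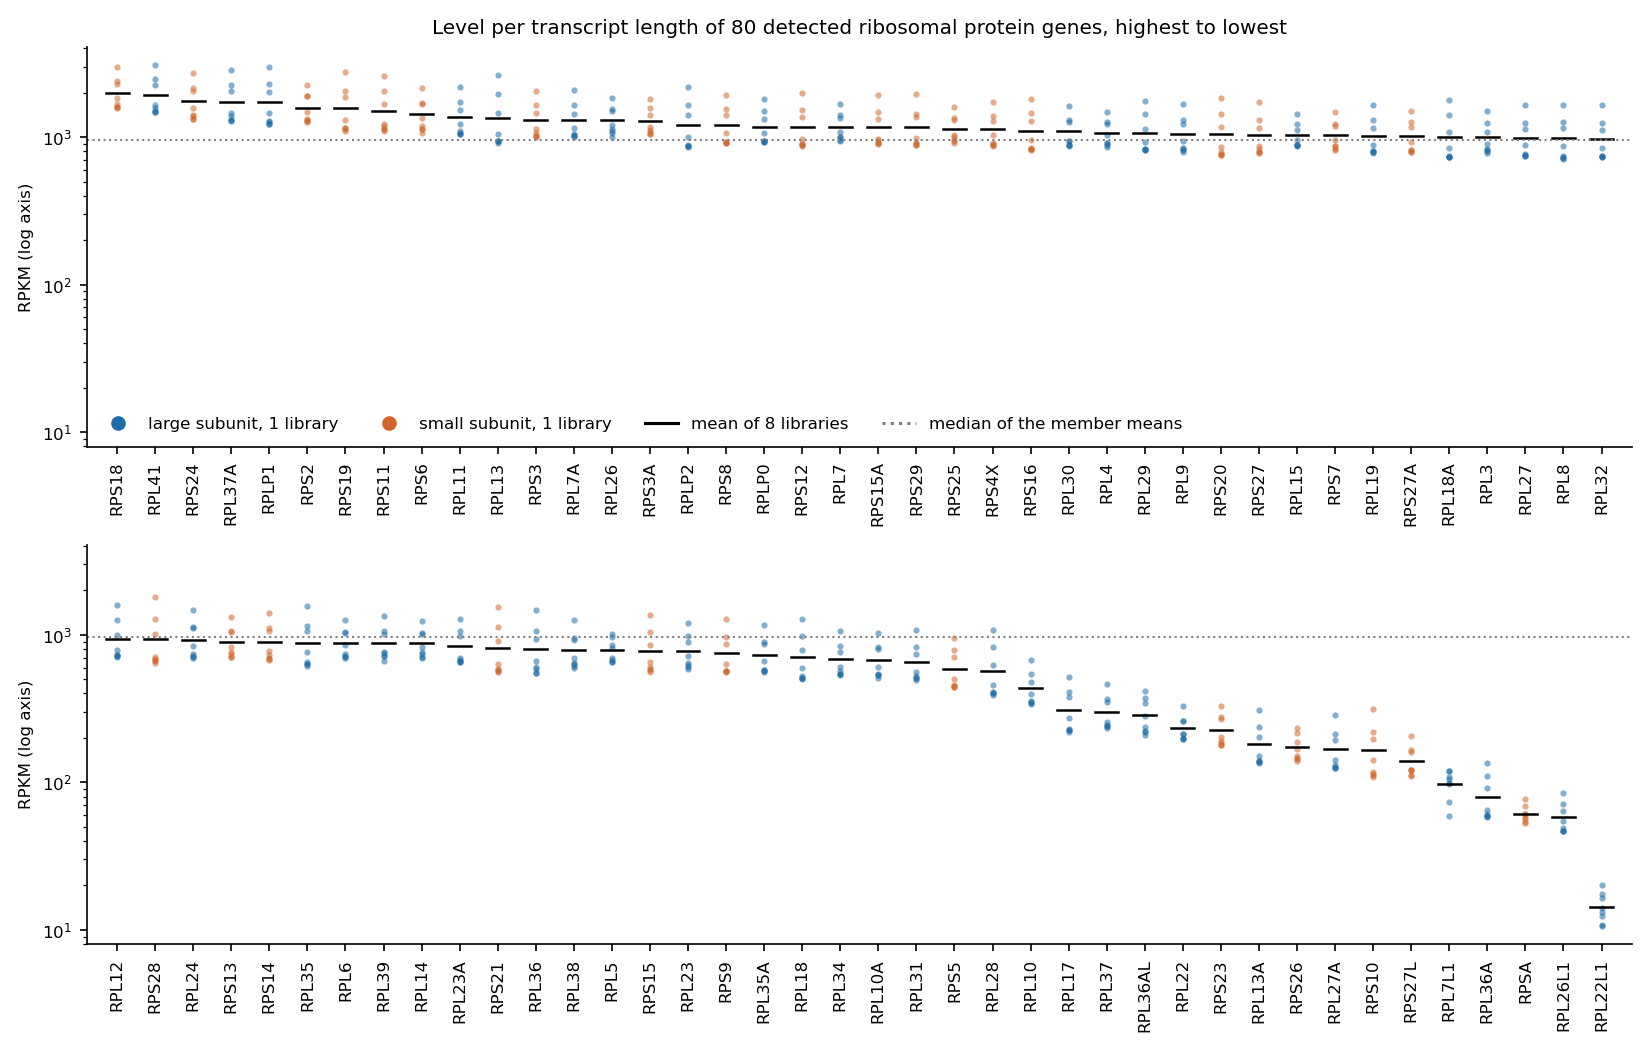
Level per transcript length (RPKM, log axis) of the 80 detected members in order of their mean; each dot is 1 of 8 libraries, coloured by subunit, bars are means and the dotted line is the median of the means, 959 RPKM. The first 40 members and most of the next 20 lie close to the dotted line, and the fall at the end runs from RPL10 to RPL22L1 at 14.4 RPKM.

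The 6 highest members were RPS18, RPL41, RPS24, RPL37A, RPLP1 and RPS2. RPS18 (chromosome 6, 33239852 to 33244281, plus strand, 6 exons), a protein of the head of the small subunit, had a lowest, median and highest level of 1578, 1753 and 2979 RPKM over the 8 libraries. RPL41 (chromosome 12, 56510374 to 56511616), which encodes the shortest and most basic peptide of the ribosome, had 1475, 1612 and 3075 RPKM. RPS24, RPL37A, RPLP1 and RPS2 had means of 1748 ± 507, 1735 ± 589, 1718 ± 648 and 1588 ± 374 RPKM (SD, n = 8). The ranges of all 6 overlapped, so their order was compared within libraries. RPS18 was above RPL41 in 6 of 8 libraries and above RPS24 in 8 of 8, and RPL41 was above RPS24, RPL37A, RPLP1 and RPS2 in 8 of 8. The order of RPL37A, RPLP1 and RPS2 changed between libraries. These are counts without a test.

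The acidic stalk proteins RPLP0, RPLP1 and RPLP2 recruit the elongation factors to the ribosome, and RPLP1 and RPLP2 bind RPLP0 as dimers. RPLP0 (chromosome 12, 120634503 to 120639014, minus strand, 8 exons) had 922, 1003 and 1821 RPKM as its lowest, median and highest level. RPLP1 (chromosome 15, 69745159 to 69747884) had 1229, 1371 and 2989 RPKM, and RPLP2 (chromosome 11, 809936 to 812876) had 863, 939 and 2190 RPKM. The ranges of all 3 overlapped, and each was highest in replicate 8.

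Among members known from ribosomopathies and from the control of p53, RPS19, the member most often mutated in Diamond-Blackfan anaemia, was high at 1572 ± 609 RPKM (SD, n = 8; chromosome 19, 42363988 to 42375484). RPL5 and RPL11, which bind MDM2 together when ribosome assembly is disturbed, had 790 ± 145 and 1367 ± 412 RPKM. RPL5 (chromosome 1, 93297594 to 93307481) lay between 650 and 1017 RPKM and RPL11 (chromosome 1, 24018269 to 24022915) between 1050 and 2176 RPKM, so the ranges of this pair did not overlap. RPS14, whose loss underlies the anaemia of a myelodysplastic syndrome, had 894 ± 268 RPKM, and RPL35A had 734 ± 221 RPKM.

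RPSA, the laminin receptor precursor that is also a protein of the small subunit, was the lowest small subunit member detected. It had 61.2 ± 8.39 RPKM (SD, n = 8; chromosome 3, 39448204 to 39454032, plus strand, 7 exons), with 52.6, 59.5 and 77.3 RPKM as its lowest, median and highest level. All 8 of its values lay below every value of every other detected member except RPL36A and some of the paralogs. RPS26, RPS10 and RPL13A were also low for proteins that every ribosome holds, at 173 ± 35.7, 165 ± 72.6 and 181 ± 64.3 RPKM. The levels of RPL10, RPL37, RPL22, RPS23 and RPL27A depended on the transcript chosen, since the annotation gave them long transcripts (1507 to 4535 bases). On the CPM scale, which ignores length, RPS23 and RPL27A had 711 ± 180 and 760 ± 265 CPM, above the median of 576 CPM over the detected members.

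The median RPKM of the detected members was 1047 for the small and 881 for the large subunit. Within libraries, the log2 ratio of the small to the large subunit median was 0.25 ± 0.03 (SD, n = 8) and lay between 0.21 and 0.30, so it was positive in each of the 8 libraries. Its sign rested on the length used, since it was -0.12 with the longest transcript of each gene and -0.02 on CPM.

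Paralogs were compared with their partners within libraries, as the log2 ratio of RPKM + 0.1, and tested by an exact permutation that flips the sign of each library's ratio (two-sided), with adjustment over 8 pairs. Every pair differed in the same direction in 8 of 8 libraries, which gave p = 0.00781 and an adjusted p of 0.00781 for each in this exact test (n = 8), the smallest p-value it can give. In 7 pairs the paralog lay below its partner. In the other, RPL36AL lay above RPL36A. How far reads were shared within a pair was not tested. The sequence that members have in common with other places in the genome is described further on, with values for some members only.

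RPL22L1 (chromosome 3, 170582665 to 170588045, minus strand, 4 exons), the paralog whose splicing and level RPL22 is known to repress, had 10.6, 13.6 and 20.1 RPKM as its lowest, median and highest level. RPL22 (chromosome 1, 6245080 to 6259679) had 196, 212 and 330 RPKM, so the pair did not overlap. Their log2 ratio was -4.03 ± 0.25 (SD, n = 8), which put RPL22L1 at 6.14% of RPL22. With the union of exons as the length it was -2.96. The ratio was highest in replicates 5 and 7, at -3.68 and -3.69, and lowest in replicate 1, at -4.29.

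RPS27L (chromosome 15, 63445539 to 63449741, minus strand, 4 exons), a target of p53, was the most abundant of the paralogs that lay below their partners. It had 110, 122 and 206 RPKM, beside 781, 851 and 1718 RPKM for RPS27 (chromosome 1, 153963239 to 153964631). The log2 ratio was -2.86 ± 0.11 (SD, n = 8), or 13.8% of RPS27. The size of this ratio depended on the length given to RPS27L, with a value of -1.32 on coding length and -5.44 on the canonical transcript of the annotation, and its sign did not.

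RPL26L1 (chromosome 5, 172386439 to 172396774) had 46.5, 52.0 and 84.9 RPKM, and RPL26 (chromosome 17, 8280834 to 8286565) had 1010, 1169 and 1835 RPKM. Their log2 ratio of -4.49 ± 0.06 (SD, n = 8) had the smallest spread between libraries of the 8 pairs. The range over libraries was -4.60 to -4.42, and the encoded proteins are nearly the same. Of the 50-base words of their transcripts, 52.5% for RPL26L1 and 53.7% for RPL26 occurred elsewhere in the genome.

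RPL36AL (chromosome 14, 50085407 to 50087349, minus strand, 2 exons), the autosomal copy of the X-linked RPL36A, had 208, 260 and 413 RPKM. RPL36A (chromosome X, 100645878 to 100651142) had 58.3, 63.0 and 135 RPKM. The log2 ratio was 1.87 ± 0.18 (SD, n = 8), so RPL36AL was at 366% of RPL36A. The size rested on the length used, with a ratio of 3.04 for the longest transcripts and 3.86 for the union of exons. The whole span of RPL36A lay inside a second listed gene, the read-through RPL36A-HNRNPH2, which itself had 50 counts over all libraries. How reads in the shared span were assigned is not given in the sources used here, and its part in the ratio was not tested.

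RPL7L1 (chromosome 6, 42847671 to 42854731, plus strand, 6 exons), a relative of RPL7 that works in ribosome assembly, was the one detected member whose departure in replicate 8 was opposite in sign to the family's median. It had 59.1 RPKM in replicate 8, its lowest value, a median of 102 RPKM and a highest value of 120 RPKM in replicate 5. RPL7 had 937, 1048 and 1666 RPKM and was highest in replicate 8. The log2 ratio was therefore widely spread, at -3.60 ± 0.63 (SD, n = 8), from -4.81 in replicate 8 and -4.20 in replicate 2 to -3.08 in replicate 3. With 0.1 RPKM added, this SD was the largest of any pair. With 0.01 added, the SD was 0.63 for this pair, below 1.37 for RPL10L to RPL10 and 0.68 for RPL3L to RPL3. Without replicates 2, 7 and 8 the RPL7L1 ratio was -3.18 ± 0.08 (SD). The mean also rested on the length used and was -5.30 with the longest transcripts, -5.27 with the union of exons and -5.61 with the canonical ones. The length used for RPL7L1, 752 bases, was shorter than its coding length of 765 bases.

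RPL39L, RPL3L and RPL10L were not detected at 1 CPM in all libraries. RPL39L (chromosome 3, 186838741 to 186857263), the paralog of male germ cells, had 14 to 42 counts per library and 0.488 ± 0.158 RPKM, beside 880 ± 237 RPKM for RPL39 (SD, n = 8). The log2 ratio was -10.55 ± 0.40, and it moved from -9.18 to -10.81 as the constant added to RPKM went from 1 to 0.01. RPL3L (chromosome 16, 1994580 to 2004679), the paralog of heart and skeletal muscle, had 10 to 36 counts per library and a log2 ratio of -12.03 ± 0.51 to RPL3, which had 994 ± 262 RPKM, with -9.74 to -12.78 over the same constants. RPL10L (chromosome 14, 47120220 to 47121028), the single-exon copy of RPL10 active in the testis, had no counts in 4 libraries and 2 to 8 counts in the others. Its ratio to RPL10, -11.67 ± 0.30, was set largely by the added 0.1 RPKM and moved from -8.68 to -13.91 as this constant went from 1 to 0.01.

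**Figure D2:**
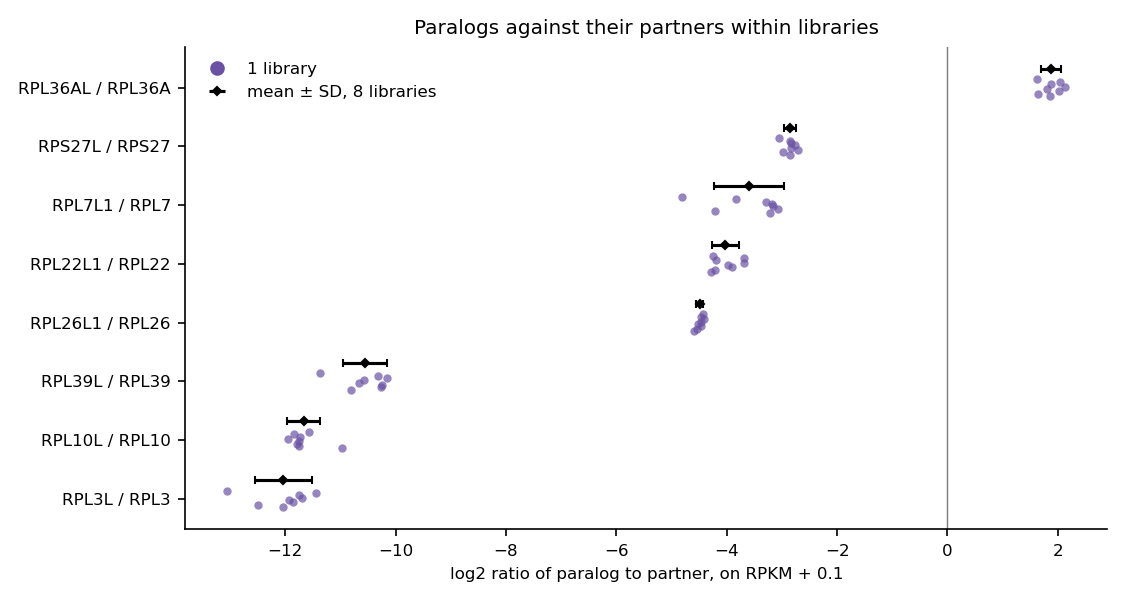
Log2 ratio of each paralog to its partner on RPKM + 0.1; dots are the 8 libraries, and diamonds with bars are the mean ± SD. RPL36AL lies right of 0 and all other paralogs left of it, with RPL7L1 spread from -4.81 to -3.08 and RPL26L1 tightly grouped around -4.49.

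RPL21 was also not detected. RPL21 (chromosome 13, 27825692 to 27830702), a large subunit protein with many processed pseudogenes, had 42 to 120 counts per library, or 1.52 ± 0.535 RPKM (SD, n = 8). Every 50-base word of its transcript (100%) occurred elsewhere in the genome, at 68 places, and its span was covered by the listed pseudogene RPL21P28, which had 0 counts.

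Shared sequence and shared intervals were therefore tabulated for all members. The median share of 50-base words found elsewhere in the genome was 35.5% over the 85 members measured and ran from 0% for RPL38 to 100% for RPL21. Across the 80 detected members this share had almost no relation to the level (Pearson's r = 0.04 with log2 mean RPKM, Spearman's rho = 0.10, as a description over genes of the same libraries). RPL7 and RPS3A, with 99.7% and 98.2% of words elsewhere, had 1176 ± 266 and 1286 ± 289 RPKM, whereas RPSA, with 80.3%, was among the lowest. Outside the paralogs, 8 members had at least 90% of their span inside another listed gene, among them RPL13A, RPL17, RPL21, RPL35A, RPL36A, RPL5 and RPS10. Of these 8, 6 were detected. Their median, undetected members included, was 173 RPKM, beside 1013 RPKM for the 69 members not covered in this way, all of them detected. RPL35A and RPL5 were the exceptions at 734 and 790 RPKM, and the genes over them, IQCG and FAM69A, had 2504 and 1872 counts in all. Whether the rule for assigning reads lowered the others was not tested.

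**Figure D3:**
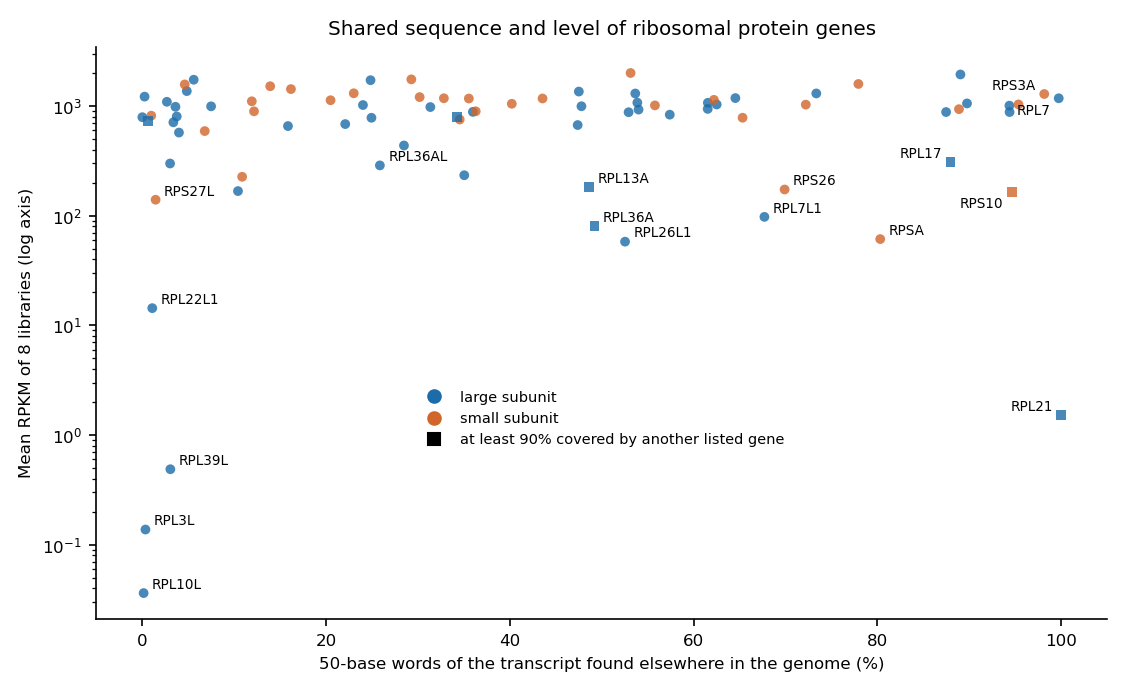
Mean RPKM of 8 libraries (log axis) against the share of 50-base words of each member's transcript that occur elsewhere in the genome; squares mark members with at least 90% of their span inside another listed gene. Levels near 1000 RPKM occur at all shares, RPL21 lies at 100% and 1.52 RPKM, and the low paralogs RPL22L1, RPL39L, RPL3L and RPL10L lie under 4%.

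Between libraries, the members moved together on the CPM scale. Their summed share of all counts was 4.94% ± 1.38 (SD, n = 8). It was lowest in replicate 1 at 3.89% (3.89 to 3.90, 95% Wilson interval, which covers counting error only) and highest in replicate 8 at 7.52% (7.51 to 7.53). It was 4.02% ± 0.231 (SD) over the other 5 libraries when replicates 2, 7 and 8 were left out. The large subunit took 2.99% ± 0.836 and the small subunit 1.95% ± 0.542. The median departure of the detected members from their own means, in log2 CPM, was -0.27, 0.38, -0.30, -0.31, -0.13, -0.33, 0.27 and 0.72 in replicates 1 to 8. All detected genes had medians between -0.03 and 0.05 in the same libraries. In replicates 2, 7 and 8, 78, 80 and 79 of the 80 members were above their own mean, against 1 to 4 in each of the other 5 libraries. Replicate 8 was the highest library for 78 members. The exceptions were RPL7L1, highest in replicate 5, and RPL22L1, highest in replicate 7. The lowest library was replicate 6 for 44 members and replicate 4 for 20. The subunits moved alike, with 0.72 and 0.71 in replicate 8 for the large and the small subunit.

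The same libraries held more counts of other short transcripts. The detected members had a median transcript length of 638 bases, beside 2738 bases for all detected genes. The 554 other detected genes with lengths between the quartiles of the members had median departures of -0.22, 0.33, -0.25, -0.27, -0.13, -0.27, 0.20 and 0.60 in replicates 1 to 8, close to those of the members in each library. With the trend of each library on length and GC content taken out, the members' median departures shrank to between -0.14 and 0.14 in replicates 1 to 7 and to 0.30 in replicate 8, where 77 of 80 members remained above their mean. In the authors' CQN values, which adjust for the same properties, they were between -0.06 and 0.10. On that scale 51, 43 and 53 of the 80 members were above their own mean in replicates 2, 7 and 8. In the other libraries 23 to 37 were. The labels gave no RNA quality or batch, so the state of the RNA, the library preparation and the cells cannot be told apart here.

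**Figure D4:**
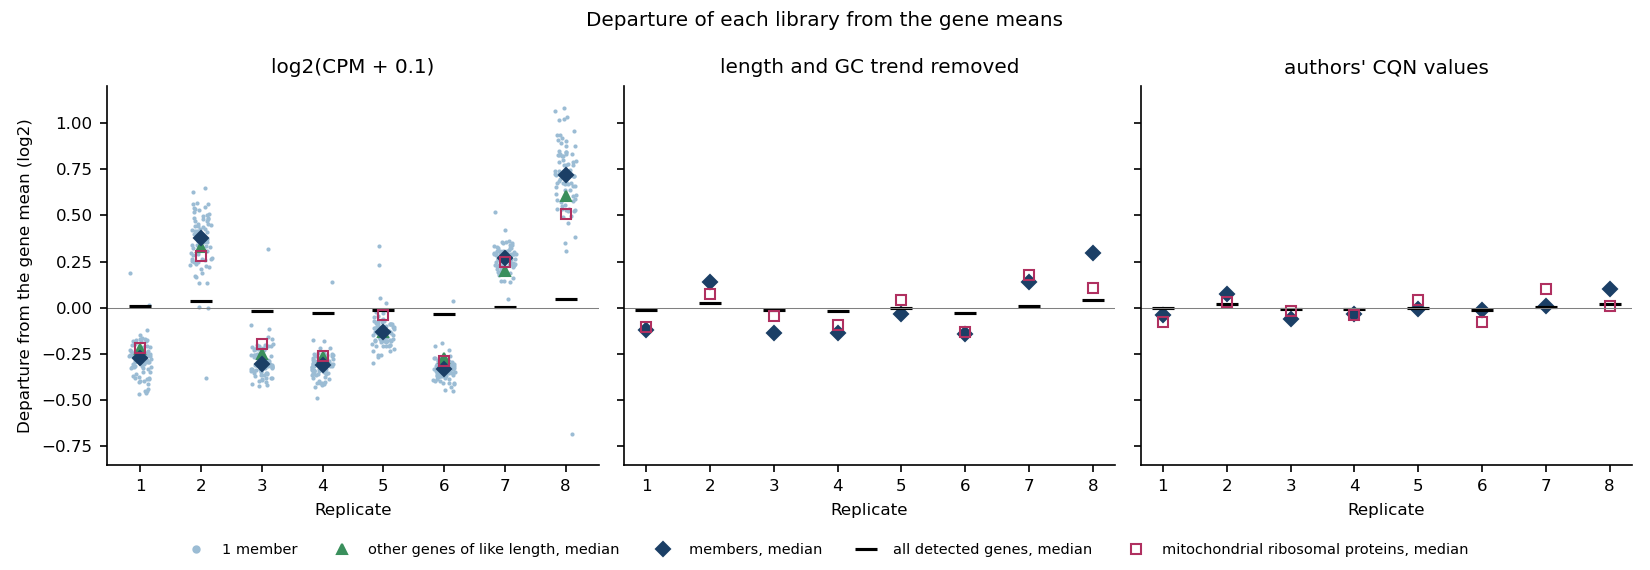
Departure of each library from the gene means (log2) on 3 scales: CPM, CPM with each library's length and GC trend removed, and the authors' CQN values; small dots are single members, diamonds their median, triangles the median of 554 other genes of like length, squares mitochondrial ribosomal proteins and bars all detected genes. On CPM, members are high in replicates 2, 7 and 8 with a median of 0.72 in replicate 8, the triangles follow them, and on the CQN scale the members' median is 0.10.

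The SD over libraries of log2(CPM + 0.1) had a median of 0.40 over the detected members, from 0.19 for RPSA to 0.59 for RPL13, beside a median of 0.28 over all detected genes. Without replicates 2, 7 and 8 the members' median SD was 0.09. Without replicate 8 alone it was 0.30. The ratio of the highest to the lowest library had a median of 2.08 over members, between 1.47 for RPSA and 2.90 for RPL13. When the members' median departure was subtracted from each library, the SD left over had a median of 0.07 (log2). It was smallest for RPL11, RPS3 and RPS14, at 0.02 each, so the proportions among these mRNAs were almost constant across the 8 libraries. It was largest for RPL7L1, at 0.73, followed by RPL22L1 at 0.29, RPSA at 0.25 and RPL13 at 0.20.

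Members were next tested for more variation between libraries than other genes of their abundance, with the goodness-of-fit test of edgeR against the trended dispersion and Benjamini-Hochberg adjustment over all 11980 detected genes. Of the 80 members 1 passed at an adjusted p under 0.05, RPL13, while 4.66% of all genes passed. RPL13 (chromosome 16, 89627065 to 89633237, plus strand, 6 exons), a protein of the large subunit, had 647, 709 and 1879 CPM as its lowest, median and highest level, with an adjusted p of 0.034 in this edgeR test. Its highest value was in replicate 8, at a departure of 1.08, and its lowest in replicate 1. An unadjusted p under 0.05 was reached by 19 members (23.8%), beside 13.1% of all genes. The call was lost when any 1 of replicates 1, 3, 4, 5, 6 or 8 was left out, and without replicate 2 there were 3 calls, RPL13, RPS10 and RPS28 (3.75% of members, beside 3.26% of all genes). Without replicates 2, 7 and 8, edgeR's test called 0 of 80 members and 2.42% of all genes, and 2 members (2.5%) had an unadjusted p under 0.05, beside 7.90% of all genes.

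The number of calls also rested on the trend used as reference. Against the DESeq2 fitted trend, 45 of the 80 members passed (56.2%), beside 23.5% of all genes. Against that trend 1 member, RPL22L1, passed without replicates 2, 7 and 8, beside 2.78% of all genes. With each library's length and GC trend removed, 6 members passed (7.5%), beside 6.10% of the 11636 genes tested, and these were RPL17, RPL27A, RPL36A, RPL37, RPL7L1 and RPS23. RPL13 was not among them. The trend was fitted on the transcript lengths used for RPKM. Those of RPL27A, RPL37 and RPS23 depended on the transcript chosen, and that of RPL7L1 was shorter than its coding length. RPL27A and RPL37 stayed close to the family, with SDs of 0.055 and 0.035 after the members' median departure was subtracted. How far the lengths used gave these calls was not tested.

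The 6 members with the largest SD were RPL13, RPS10, RPL28, RPS28, RPS21 and RPL36, and their departures in replicate 8 were 0.96 to 1.08. The 6 with the smallest SD were RPSA, RPL5, RPL15, RPL22, RPS26 and RPL4, with 0.35 to 0.52 in replicate 8. RPS28 (chromosome 19, 8386384 to 8387280), a small subunit protein near the mRNA exit, had 245, 266 and 694 CPM as its lowest, median and highest level. RPS21 (chromosome 20, 60962121 to 60963576) had 202, 219 and 557 CPM. RPL15 (chromosome 3, 23958295 to 23965187), a core protein of the large subunit, had 716, 757 and 1170 CPM, and RPL4 (chromosome 15, 66791653 to 66797193) had 1233, 1403 and 2142 CPM. The sets also differed in base composition. The first set had GC contents of 52.2% to 62.1% and the second of 42.0% to 50.9%. Across the 80 members the SD had a Pearson's r of 0.59 and a Spearman's rho of 0.59 with GC content, and of -0.35 and -0.40 with log2 length. Without replicates 2, 7 and 8, r was -0.09 and rho -0.01 with GC content, and 0.09 and 0.01 with log2 length, so both relations rested on those libraries. These are descriptions over genes that share the same libraries. A trend on GC content was also present outside the family. Over 11556 detected genes that are not members, departures in replicates 2, 7 and 8 had slopes of 0.29, 0.10 and 0.37 per 10% of GC content. In the other libraries the slopes were -0.19 to -0.10. Whether the members differed from these genes in this was not tested.

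**Figure D5:**
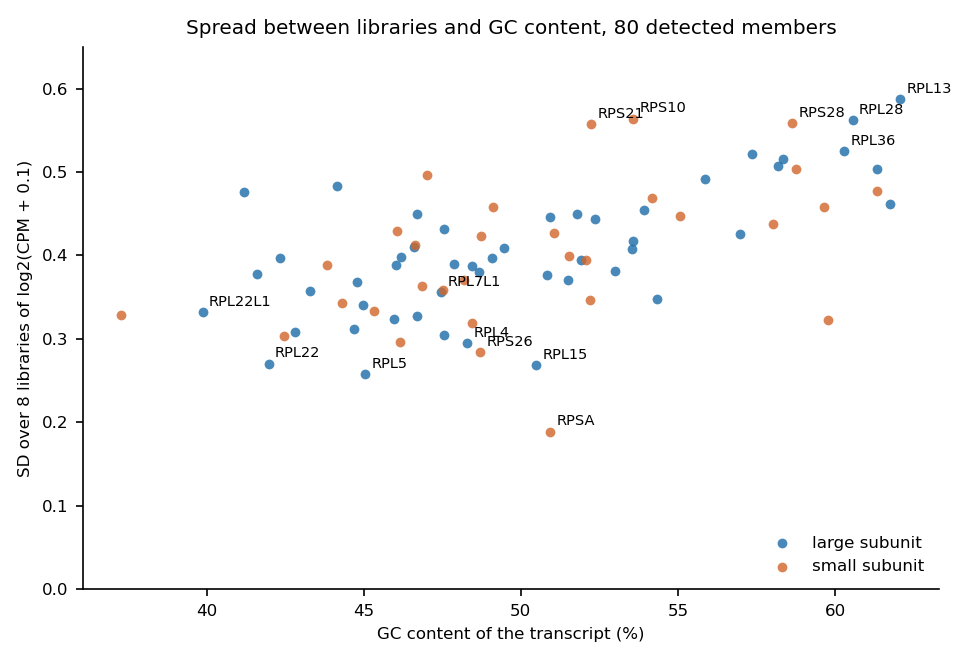
SD over 8 libraries of log2(CPM + 0.1) against the GC content of the transcript for the 80 detected members, coloured by subunit. The members above an SD of 0.50 have GC contents over 52%, RPL13 lies at the top right with 0.59 and 62.1%, and RPSA lies lowest with 0.19 at 50.9%.

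Genes that work with the ribosome were read beside the members. FAU, which encodes a ribosomal protein fused to a ubiquitin-like domain, had 256.3 ± 90.7 CPM (SD, n = 8) and departed by 0.82 in replicate 8. GNB2L1 (RACK1), the scaffold bound to the small subunit, had 798 ± 246 CPM and departed by 0.73 there. Neither passed the variation test. All 74 mitochondrial ribosomal proteins were detected and 0 passed the test. On CPM their median departures followed the members at a smaller size, from -0.29 in replicate 6 to 0.51 in replicate 8. With the length and GC trend removed, their median in replicate 8 was 0.11, below 0.18 in replicate 7. On the authors' CQN values it was 0.0093 in replicate 8. For 18 translation factors and other mRNAs with terminal oligopyrimidine tracts, among them EEF1A1, EEF2 and TPT1, replicate 8 had a median departure of 0.41, with 18 detected and 0 past the test. This median was 0.21 with the length and GC trend removed and 0.11 on the authors' CQN values. On CPM, 14 of the 18 were above their mean in replicate 8. The departures there ranged from -0.48 for EIF4B to 0.85 for EEF1D. EEF1A1 itself, at 8690 ± 846 CPM (SD, n = 8), departed by 0.23 in replicate 8.

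Assembly factors and regulators were read in the same way, and their difference from the members was not tested. The 33 ribosome assembly factors, such as NOP56, BOP1 and NOB1, had median departures of -0.19, -0.05, -0.005, -0.14, 0.17, -0.25, 0.29 and 0.12 in replicates 1 to 8. Their sign was that of the members except in replicates 2 and 5, and 19 of the 33 were above their mean in replicate 8. Their direction in replicate 8 depended on the scaling, with -0.11 after the length and GC trend was removed and -0.20 on the authors' CQN values. The 12 genes of mTORC1 and its control of these mRNAs, among them MTOR and LARP1, had median departures of the opposite sign to the members in each library, with -0.25 in replicate 8 and 0.23 in replicate 3. The genes of this list were not alike. In replicate 8, 5 of the 12 were above their mean, among them EIF4EBP1 at 0.91, MLST8 at 0.74 and RPS6KB2 at 0.68, whereas LARP4, MTOR and LARP1 were at -0.84, -0.73 and -0.45. With the length and GC trend removed, this list's median departure in replicate 8 was 0.0034. In both lists all genes were detected and 0 passed the variation test.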

How the data were processed

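The authors deposited 1 table of RNA-seq values from 8 hCMEC/D3 libraries, from polyadenylated RNA and a TruSeq v2 kit per the labels' protocols. Its columns are raw counts per gene and CQN-normalised values, per the file headers. The deposited counts are whole numbers, all even. The CQN values, whose size fits a log2 scale, were given by the authors for 81 of the 86 members. The submitters' processing notes name hg19, CASAVA 1.9, TopHat2 2.0.6 and HTSeq, with no role or order. The annotation, the use of strand and the handling of reads with several matches are not given in the sources used here. There were 0 further columns of per-sample values.

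The members and lists were chosen with earlier results of these data known. CPM used TMM library sizes (edgeR 4.0.16, R 4.3.3), and genes at 1 CPM or more in all 8 libraries were detected. RPKM is CPM per 1000 bases of the shortest complete transcript with the coding length of the canonical one (GENCODE 44 on GRCh37), within the listed bounds, and 21456 genes matched. Coordinates are those of the table, 1-based; sequences are RefSeq's on GRCh38.p14. A constant of 0.1 was added before logs, which shrinks ratios of low genes. Counts as deposited were tested with the goodness-of-fit test of edgeR on an intercept-only fit, Benjamini-Hochberg adjusted, and tested on simulated data. The length and GC trend was a spline per library. Wilson intervals used halved counts. Shared sequence was counted on GRCh37 outside the gene. Named members were both members of each pair, the 6 highest and lowest levels, the 6 largest and smallest SDs, calls, undetected members (not all are reported here), a member opposite to the rest in replicate 8, the stalk and a set of ribosomopathy genes. RPL10, RPL37, RPS23, RPL27A, RPL13A, RPS3, RPS3A, RPL38, RPS29, RPL17 and the members listed with them by count were named after their values were seen.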

Additional observations from a re-analysis of the deposited data

Results flagged for a closer look

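In the RPL10L to RPL10 log2 ratio, 1 library lay far from the others. Replicate 1 had -10.97, and its gap to the next library was 0.604 of the whole range over 8 libraries. RPL10L had 4 counts in replicate 1, so the gap rests on very few counts. It was the only such case among 51 sets of 8 values examined this way, and chance gives about 1 in 20.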

How the results depend on the processing

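Of 239 recomputed values, 210 kept their direction and stayed in the range set for them. The SD of member levels, 1.32, was 1.48 with the longest transcript, 1.39 with the union of exons, 1.18 on CPM, 1.15 on the authors' CQN values and 2.65 over all members with any count. With settings chosen after seeing the data it was 1.57 on canonical transcripts, 1.17 on coding length and 1.01 without the paralogs. The small to large subunit ratio, 0.25, turned to -0.12 with the longest transcript and -0.022 on CPM, and was 0.20 with the union of exons, 0.38 on canonical transcripts, 0.20 on coding length and 0.086 on CQN values. The median SD between libraries, 0.40, was 0.11 on CQN values, 0.18 with the length and GC trend removed and 0.087 without replicates 2, 7 and 8, a setting chosen after seeing the data. The median departure of replicate 8, 0.72, was 0.10 on CQN values and 0.30 with the trend removed. Members more variable than the trend numbered 45 of 80 (56.25%) with the DESeq2 fitted trend, beside 23.5% of all genes. With the length and GC trend removed they numbered 6 (7.5%), beside 6.10% of all genes. They numbered 0 without replicates 2, 7 and 8, beside 2.42% of all genes. When 1 library was left out they numbered 0 to 3, beside 3.15% to 4.09% of all genes. The median SD between libraries was 0.30 to 0.43 when 1 library was left out. The cause of these changes was not tested. The paralog ratios kept their direction and call under each alternative that allowed the test, including 1 library left out. Their size moved with the length used. RPL39L, RPL3L and RPL10L had no CQN values, so their pairs were not compared on that scale. Without replicates 2, 7 and 8 all 8 ratios kept their direction, and no test was made. No paired comparison between groups was possible because the 8 libraries form 1 group, and only the paralog ratios were paired, within libraries. Low counts limit the values of RPL10L, RPL3L, RPL39L and RPL21.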
